A study of Homo sapiens with 8 samples.

Results

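Double-stranded RNA is sensed and answered in the cell by a small set of proteins, and the genes of 9 of them, IFIH1, DHX58, TLR3, MAVS, EIF2AK2, ADAR, OAS1, OAS2 and OAS3, were followed in epithelial ovarian cancer (EOC) cells silenced or not for SFPQ, a nuclear RNA-binding protein with a role in splicing. They were chosen by function, as receptors, adaptor and effectors, with earlier results of these data known. They were found through the RefSeq accessions of the array probes and are 9 of 20503 genes named in this way, with 19 of 50599 probes. RNA of the MDAH line (MDAH-2774) and of the SKOV3 line was hybridised on 8 one-colour arrays, in 4 groups of 2: MDAH control, MDAH SFPQ-silenced, SKOV3 control and SKOV3 SFPQ-silenced. Silenced cells carried sh2 or sh3, a pair of lentiviral short hairpin RNAs against SFPQ, so that the silenced arrays of a group differ in the hairpin. The labels call both controls of a line control-shRNA cells, whereas the study's methods list a parental and a control-shRNA sample, and the controls (1 and 2) are therefore shown apart wherever a value rests on them. The labels name no drug for any of the samples and no difference in growth or labelling between the groups. A parental control would carry no hairpin, so that the handling of the controls is not settled. No source says that the arrays of a group came from separate cultures, so that p-values measure the spread between these arrays only.

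In background terms, long double-stranded RNA is a product of viral replication and of some of the cell's own transcripts. IFIH1 (MDA5) binds it in the cytosol, and DHX58 (LGP2), a relative without signalling domains, modulates that binding. Both act with MAVS, an adaptor on the mitochondrial membrane, to switch on type I and III interferons, while TLR3 sees the same ligand in endosomes. EIF2AK2 (PKR) shuts off translation by phosphorylating eIF2α, the OAS enzymes make short oligoadenylates that set off the breakdown of RNA, and ADAR edits adenosines in duplexes to inosines, which keeps the cell's own RNA from being sensed. Most of these genes are themselves induced by interferon.

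Promoter letters were looked up as a description, since IFIH1 and the OAS genes are known interferon targets. Whether interferon acted in these cells was not tested. RefSeq promoter windows (GRCh38.p14, 250 bases before to 50 after the transcription start) were found for 7 of the 9 genes. DHX58 and OAS2 had none. The motif GAAANNGAAA, searched on both strands as the core of an interferon-stimulated response element, stood in the windows of IFIH1, TLR3, EIF2AK2 and OAS3, that is in 4 of 7 genes, and in 3.57% of all 35116 windows. A form with a single base between the GAAA repeats, GAAANGAAA, was added after the OAS1 window had been seen; it stood in OAS1 and OAS3 and in 3.12% of all windows. Neither form was in the ADAR or MAVS windows. A match is a description of the letters and shows no binding. The windows of IFIH1, OAS1 and OAS3, whose silenced SKOV3 arrays were both above the controls, and of EIF2AK2, whose silenced SKOV3 arrays were both below them, are printed from 250 bases before to 10 after the start, 5′ to 3′ on the gene's strand, with every match of either form in capitals (TTTC letters are matches on the opposite strand). The capitals farther from the start in IFIH1 and in OAS3 each hold a pair of overlapping matches.
IFIH1 (chr2:162318675-162318934, minus strand): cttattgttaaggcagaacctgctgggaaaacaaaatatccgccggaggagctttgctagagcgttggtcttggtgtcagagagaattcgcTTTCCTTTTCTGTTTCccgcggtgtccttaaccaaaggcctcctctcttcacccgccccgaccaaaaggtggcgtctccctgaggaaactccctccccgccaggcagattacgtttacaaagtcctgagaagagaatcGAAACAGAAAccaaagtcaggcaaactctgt
OAS1 (chr12:112906712-112906971, plus strand): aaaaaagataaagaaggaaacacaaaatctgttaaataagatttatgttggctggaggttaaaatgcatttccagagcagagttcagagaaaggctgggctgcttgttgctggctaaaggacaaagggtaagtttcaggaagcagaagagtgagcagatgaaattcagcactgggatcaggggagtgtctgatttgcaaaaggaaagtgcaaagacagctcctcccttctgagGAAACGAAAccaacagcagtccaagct
OAS3 (chr12:112938224-112938483, plus strand): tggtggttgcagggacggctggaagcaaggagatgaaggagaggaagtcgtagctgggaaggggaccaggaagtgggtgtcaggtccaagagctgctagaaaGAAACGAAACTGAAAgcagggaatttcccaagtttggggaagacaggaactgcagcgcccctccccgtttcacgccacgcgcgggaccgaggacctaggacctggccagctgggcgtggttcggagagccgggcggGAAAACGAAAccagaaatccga
EIF2AK2 (chr2:37156971-37157230, minus strand): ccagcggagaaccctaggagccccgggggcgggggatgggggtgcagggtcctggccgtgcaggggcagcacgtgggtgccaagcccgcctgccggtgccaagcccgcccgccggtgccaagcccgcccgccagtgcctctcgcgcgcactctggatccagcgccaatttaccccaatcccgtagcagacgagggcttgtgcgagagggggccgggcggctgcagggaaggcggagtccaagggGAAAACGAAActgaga
IFIH1 held 3 matches, the nearest from position -21 to -12 before the start. The match of OAS1 ended at position -9, that of OAS3 nearest the start at -3, and that of EIF2AK2 ran across the start, from -6 to 4, as did the single match of TLR3, TTTCACTTTC, from -4 to 6.

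SFPQ itself, the targeted gene, checked the labels. In MDAH cells its level was 3.64 and 3.91 in controls 1 and 2 and 2.45 and 2.10 with sh2 and sh3. In SKOV3 cells it was 4.84, 4.66, 3.01 and 2.48. These and all levels below are log2 signals minus the same array's 75th percentile, on the brightest probe of a gene, so that levels of different genes are not set against each other. SFPQ was lower in all 4 silenced arrays, with a log2 fold change of -1.50 ± 0.23 (SE) in MDAH (adjusted p = 0.0328, limma) and -2.01 ± 0.23 in SKOV3 (adjusted p = 0.0299). Of the epithelial markers EPCAM, KRT7, KRT8, KRT18, KRT19 and CDH1, 5 of 6 were well above background on all 8 arrays, and CDH1 was not in SKOV3 controls. Of 4 markers of Mullerian ovarian carcinoma (PAX8, WT1, MUC16 and MSLN) only 1, PAX8, was above background on all 8, and MSLN was on none. MUC16 was above it in the silenced SKOV3 arrays only. Of the 3 tested, 1 was called higher in the average, beside 2.02% of all genes. Of 6 leukocyte markers 3 (PTPRC, CD14 and CD68) were well above background on all 8 arrays and 1, CD3E, on none, and 0 of the 5 tested passed in a line or in the average. Of 3 endothelial markers 1, CDH5, was above background on all 8, and 0 of 2 tested passed. Of 4 fibroblast markers 1, COL1A1, was above background on all 8 and 2, LUM and PDGFRB, on none. The 2 fibroblast markers tested, COL1A1 and DCN, had a median average change of 1.19 after silencing. COL1A1, a collagen chain, rose in the average (1.18 ± 0.20, adjusted p = 0.0296), from -0.89 and -0.58 in MDAH controls to 0.20 and 0.61, and from -2.16 and -2.76 in SKOV3 controls to -1.50 and -0.96, whereas DCN did not pass (1.20 ± 0.30, adjusted p = 0.0664). The part of these markers in the results below was not tested. The 75th percentile of the signal ran from 243.9 on the dimmest array (MDAH sh3) to 496.2, and 47.7% to 57.0% of probes were well above background, with no saturated probe.

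After SFPQ silencing, the RNA of the cytosolic sensor pair was higher over both lines together, IFIH1 by 2.10-fold and DHX58 by 1.64-fold, and these were the 2 of 9 genes that passed the test (adjusted p under 0.05) when the lines were averaged. The background there was 5.66% of 15550 genes called, 2.02% in the upward and 3.64% in the downward direction. None of the 9 passed within a single line, where 2.03% of genes were called in MDAH (0.418% higher, 1.61% lower) and 0.997% in SKOV3 (0.424% higher, 0.572% lower). At an unadjusted p under 0.05, 0 of 9 passed in MDAH, against 23.1% of all genes, and 6 of 9 in SKOV3, against 19.5%. Of these, IFIH1, DHX58, OAS1 and OAS3 were higher, and EIF2AK2 and MAVS were lower. The lower MAVS value is that of its brightest probe alone. The median log2 fold change of the 9 was 0.37 in MDAH, where that of all genes was 0.10, and 0.77 in SKOV3, where that of all genes was -0.04. Without a test, both silenced arrays were above both controls for 7 of 9 genes in MDAH and below them for 0, where 35.6% and 21.4% of all genes were. In SKOV3 they were above for 4 of 9 (IFIH1, DHX58, OAS1 and OAS3), beside 25.9% of all genes, and below for 2 of 9 (EIF2AK2 and MAVS), beside 32.1%. In the bulk RNA measured here, more cells expressing a gene and more RNA per cell cannot be told apart.

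**Figure D1:**
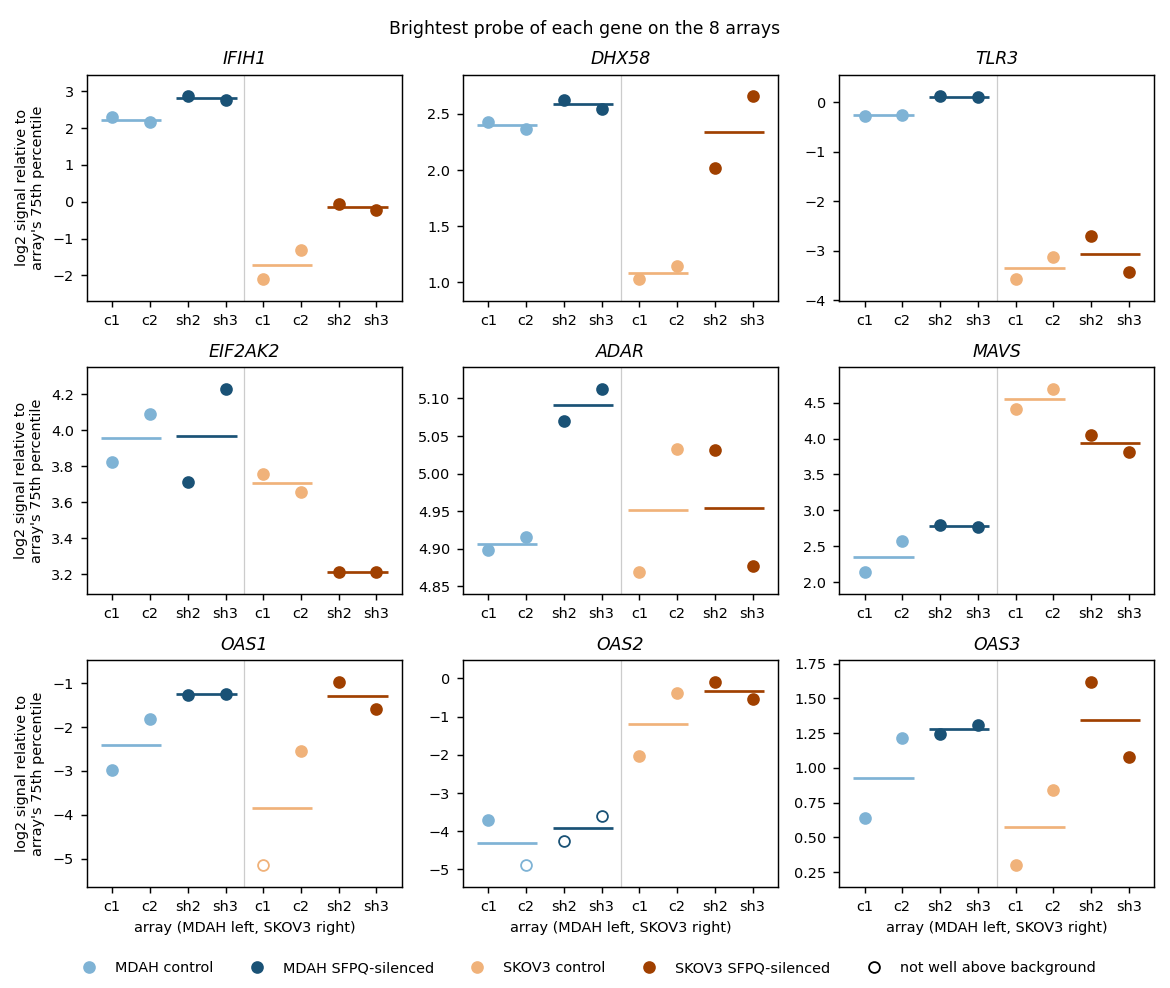
Level of each of the 9 genes (log2 signal after subtraction of the array's 75th percentile, brightest probe) on the 4 MDAH and 4 SKOV3 arrays, where c1 and c2 are the controls, bars are group means, open points were not well above background and each panel has its own scale. IFIH1 and DHX58 are higher with both hairpins than in both controls of their line, and OAS1 in SKOV3 control 1 and OAS2 on 3 of the MDAH arrays are open points.

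IFIH1, the receptor for long duplexes, read 2.30 and 2.15 in MDAH controls, 2.86 with sh2 and 2.76 with sh3. In SKOV3 cells it stood at -2.10 and -1.31 in the controls and at -0.07 and -0.23 with sh2 and sh3. Silenced and control arrays did not overlap in either line. The log2 fold change was 0.59 ± 0.26 in MDAH (95% interval -0.03 to 1.21, adjusted p = 0.233) and 1.55 ± 0.26 in SKOV3 (95% interval 0.93 to 2.18, adjusted p = 0.057), or 2.94-fold on the linear scale. Over both lines it was 1.07 ± 0.18 (95% interval 0.63 to 1.51, adjusted p = 0.0289). Each of the 4 silenced-minus-control pairs of single arrays was positive in each line, from 0.47 to 0.70 in MDAH and from 1.08 to 2.03 in SKOV3. With only control 1 of each line as reference the average was 1.23 (adjusted p = 0.152), with only control 2 it was 0.91 (adjusted p = 0.247), and leaving out 1 array gave values between 0.87 and 1.27. The call was lost without MDAH control 1, MDAH control 2, MDAH sh3, SKOV3 control 1 or SKOV3 sh3, that is in 5 of 8 cases.

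DHX58, the LGP2 helicase, read 2.43 and 2.37 in MDAH controls, then 2.63 and 2.54 with sh2 and sh3. In SKOV3 cells the controls were at 1.03 and 1.15, sh2 at 2.02 and sh3 at 2.66. Again no silenced array overlapped the controls of its line, and silenced SKOV3 cells reached the range of MDAH cells, sh3 above all 4 MDAH arrays. The log2 fold change was 0.19 ± 0.22 in MDAH (95% interval -0.34 to 0.71, adjusted p = 0.642) and 1.25 ± 0.22 in SKOV3 (95% interval 0.72 to 1.78, adjusted p = 0.0648). The average, 0.72 ± 0.16, was just inside the threshold (adjusted p = 0.0499), and it was lost on leaving out any array but SKOV3 sh2, in 7 of 8 cases, at values between 0.56 and 0.88. It was 0.73 with only control 1 (adjusted p = 0.309) and 0.70 with only control 2 as reference (adjusted p = 0.40).

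TLR3 is the endosomal receptor. Its MDAH levels were -0.29 and -0.25 in the controls and 0.11 and 0.09 after silencing, a narrow separation. Its SKOV3 levels were -3.57 and -3.12 in the controls, -2.70 with sh2 and -3.42 with sh3, so that the groups overlapped. The log2 fold changes were 0.37 ± 0.27 in MDAH (adjusted p = 0.429) and 0.28 ± 0.27 in SKOV3 (adjusted p = 0.582), neither past the test.

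MAVS, the adaptor of the cytosolic sensors, gave values on its brightest probe that lay on opposite sides of 0 in the 2 lines. MDAH controls were at 2.14 and 2.57 and silenced cells at 2.79 and 2.77, all above the controls. SKOV3 controls were at 4.41 and 4.68 and silenced cells at 4.05 and 3.82, all below the controls. The log2 fold changes were 0.42 ± 0.20 in MDAH (adjusted p = 0.261) and -0.61 ± 0.20 in SKOV3 (adjusted p = 0.182), and the difference between the lines, 1.03 ± 0.29, did not pass (unadjusted p = 0.00933, adjusted p = 0.241). The other 6 MAVS probes did not show this. Their log2 fold changes lay between -0.18 and 0.00 in MDAH and between -0.06 and 0.24 in SKOV3. The statement on MAVS therefore rests on 1 of 7 probes, A_33_P3244021, which carries the same accession, NM_020746, as 5 of the others.

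EIF2AK2, the kinase PKR, read 3.82 and 4.09 in MDAH controls, then 3.71 and 4.23 after silencing, with the silenced arrays on either side of the controls. In SKOV3 cells it stood at 3.76 and 3.66 in the controls and at 3.21 and 3.22 with sh2 and sh3, below both controls. The SKOV3 change of -0.49 ± 0.21 did not pass (adjusted p = 0.255), and in MDAH the estimate was 0.01 ± 0.21 (95% interval -0.48 to 0.51), with a sign that turned under quantile normalization (-0.11), normexp (-0.13), the deposited values (-0.11) and with only control 2 as reference (-0.12). On its second probe, for NM_001135652, the changes were 0.24 in MDAH and -0.20 in SKOV3.

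ADAR, the editing enzyme, was the steadiest of the 9. Its levels were 4.90 and 4.92 in MDAH controls, 5.07 and 5.11 in silenced MDAH cells, 4.87 and 5.03 in SKOV3 controls and 5.03 and 4.88 in silenced SKOV3 cells. The whole range over the 8 arrays was thus from 4.87 to 5.11. The 95% interval of its change ran from -0.16 to 0.53 in MDAH and from -0.34 to 0.35 in SKOV3, so that a change of more than 0.35 in either direction lay outside the interval in SKOV3. The SKOV3 estimate of 0.00 turned sign with median centring (-0.031).

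The OAS genes, which encode the oligoadenylate synthetases, were measured on 6 probes, and OAS1 and OAS2 had the widest gaps of the 9 genes between the controls of a line. OAS1 was at -2.99 in MDAH control 1 and -1.81 in control 2, against -1.27 and -1.24 with sh2 and sh3. In SKOV3 cells it was at -5.15 in control 1, where it was not well above background, at -2.55 in control 2, and at -0.98 and -1.59 after silencing. Silenced arrays were above both controls in both lines. The log2 fold change was 2.57 ± 0.81 in SKOV3 (95% interval 0.64 to 4.49, adjusted p = 0.165) and 1.15 ± 0.81 in MDAH (adjusted p = 0.425), or 1.86 ± 0.57 on average (adjusted p = 0.101), the largest estimates of the 9 without passing the test. The SKOV3 and average estimates rest in part on control 1, where the signal was near background and the size of the difference is therefore uncertain. Against only control 2 the SKOV3 value was 1.27 (adjusted p = 0.464). Without SKOV3 control 2, and so against the array near background alone in that line, the average was 2.51 (adjusted p = 0.0322).

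OAS2 was at -3.71 and -4.89 in MDAH controls and at -4.25 and -3.59 after silencing, and of these arrays only control 1 was well above background. In SKOV3 cells it was at -2.04 in control 1, -0.37 in control 2, -0.10 with sh2 and -0.54 with sh3, so that silenced and control arrays overlapped (0.88 ± 0.61, adjusted p = 0.458). The other OAS2 probes, for NM_002535 and NM_016817, separated the SKOV3 groups. The first was at -4.37 and -3.22 in SKOV3 controls and at -1.84 and -2.45 after silencing (1.65 ± 0.39, adjusted p = 0.0998). The second was at -4.72 and -3.63, and at -1.37 and -2.49 after silencing (2.24 ± 0.48, adjusted p = 0.0825). Neither passed over the 29018 probes tested, and both were not well above background in SKOV3 control 1, so that the size of these differences is uncertain.

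OAS3 was at 0.64 and 1.22 in MDAH controls and at 1.25 and 1.31 after silencing. In SKOV3 cells it was at 0.30 and 0.84 in the controls and at 1.61 and 1.08 with sh2 and sh3. The silenced arrays were above both controls in each line, in MDAH by as little as 0.03 between control 2 and sh2. The changes, 0.35 ± 0.29 in MDAH (adjusted p = 0.504) and 0.77 ± 0.29 in SKOV3 (adjusted p = 0.22), did not pass. A second, dimmer probe gave 0.33 in MDAH and 0.23 in SKOV3, with control 2 above both silenced arrays in SKOV3.

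**Figure D2:**
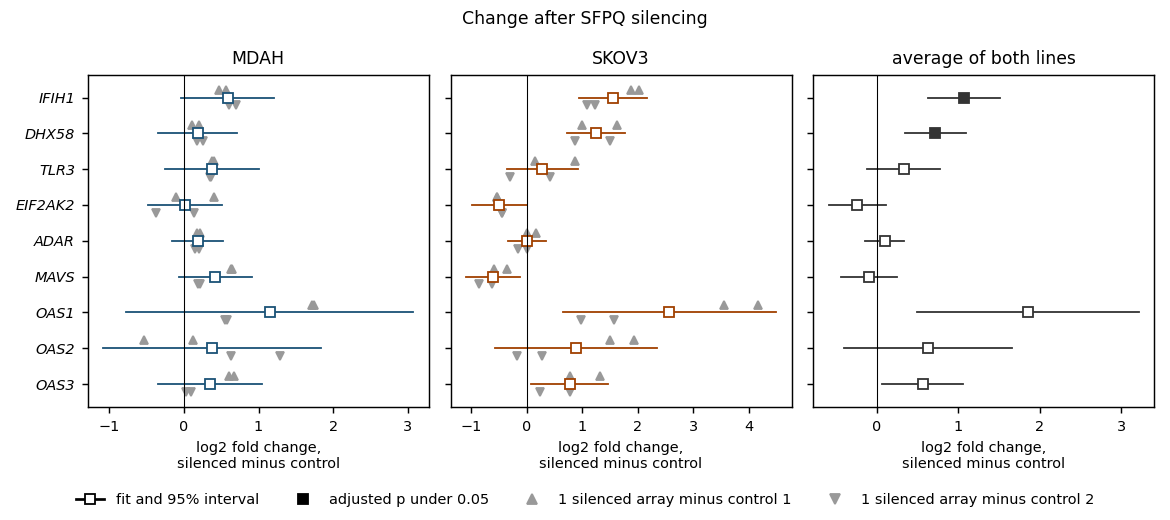
Log2 fold change after SFPQ silencing (x axis) of each gene in each line and averaged over the lines, with the fitted value and its 95% interval (squares and lines, filled where the adjusted p was under 0.05) and the differences of single silenced arrays from control 1 (upward triangles) and control 2 (downward triangles). The 2 filled squares are IFIH1 at 1.07 and DHX58 at 0.72 in the average, and the OAS1 triangles of SKOV3 lie apart by control, with OAS1 not well above background in control 1.

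The unsilenced lines were then compared, to give the levels from which silencing started. In unsilenced cells 5 of the 9 genes differed between SKOV3 and MDAH, beside 57.5% of all genes, so that the share of the 9 was no higher than the background. Of these, 2 were higher and 3 lower in SKOV3, where 30.7% of all genes were higher and 26.8% lower, and the same 2, MAVS and OAS2, had both SKOV3 controls above both MDAH controls, beside 45.1% of all genes. IFIH1 was 3.93 ± 0.26 lower on the log2 scale in SKOV3 (adjusted p = 4.08e-05) and TLR3 3.07 ± 0.27 lower (adjusted p = 0.000129). DHX58 was lower by 1.31 ± 0.22 (adjusted p = 0.00238). MAVS was 2.19 ± 0.20 higher in SKOV3, a 4.56-fold difference (adjusted p = 0.000173), and here 6 of its 7 probes passed, at 1.01 to 2.19, while the NM_001206491 probe gave 0.19. OAS2 was 3.10 ± 0.61 higher in SKOV3 on its brightest probe (adjusted p = 0.00472), which was not well above background in MDAH control 2. Its NM_002535 probe gave 0.46 ± 0.39 and did not pass (adjusted p = 0.361). The NM_016817 probe, not above background in MDAH controls and above it in SKOV3 control 2 only, read higher in SKOV3 by an uncertain amount. For EIF2AK2, ADAR, OAS1 and OAS3 the lines did not differ past the test, with log2 differences of -0.25, 0.04, -1.45 and -0.36.

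Ordered from low to high, IFIH1 had 4 separate groups, SKOV3 control, SKOV3 silenced, MDAH control and MDAH silenced, with no overlap between neighbours. DHX58 had the same order with silenced SKOV3 cells overlapping MDAH controls, and TLR3 the same with both SKOV3 groups overlapping. MAVS on its brightest probe ran the other way, MDAH control, MDAH silenced, SKOV3 silenced and SKOV3 control, without overlap. Its other probes did not show this order within the lines. The silenced SKOV3 level of IFIH1, -0.07 and -0.23, was still below the lowest MDAH control, 2.15.

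Whether silencing acted differently in the 2 lines was tested as the difference of the changes. None of the 9 passed, where 0.0965% of all genes did. The smallest p-values were those of MAVS given above, of DHX58 (-1.06 ± 0.31, unadjusted p = 0.0123, adjusted p = 0.252) and of IFIH1 (-0.97 ± 0.37, unadjusted p = 0.0352, adjusted p = 0.312), and negative values mean a higher change in SKOV3. The 3 genes were the ones under an unadjusted p of 0.05, beside 14.9% of all genes.

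The controls were compared with each other because their identity is uncertain. All 9 genes had a positive mean difference of control 2 minus control 1, where 57.3% of all genes had one, and the median was 0.25 against 0.03. No gene passed this test among the 15550 (0% called; 1.69% had an unadjusted p under 0.05). OAS1 was at an unadjusted p of 0.0136, with control 2 higher than control 1 by 1.88 ± 0.54 on average, and OAS3 at 0.0553, with 0.56 ± 0.24. Control 2 was above control 1 in both lines for TLR3, ADAR, MAVS, OAS1 and OAS3, that is for 5 of 9 genes, beside 33% of all genes. These control values are also part of the silencing comparisons, so that both sets of values are given side by side and not as independent results. Between the hairpins none of the 9 passed, beside 0.386% of all genes, and the sh3 minus sh2 values lay between -0.37 for TLR3 and 0.28 for DHX58. In both lines sh2 was above sh3 for 3 of 9 genes, IFIH1, TLR3 and MAVS, beside 30.9% of all genes. The sh3 array of MDAH was the dimmest of the 8, and its part in these values was not tested.

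**Figure D3:**
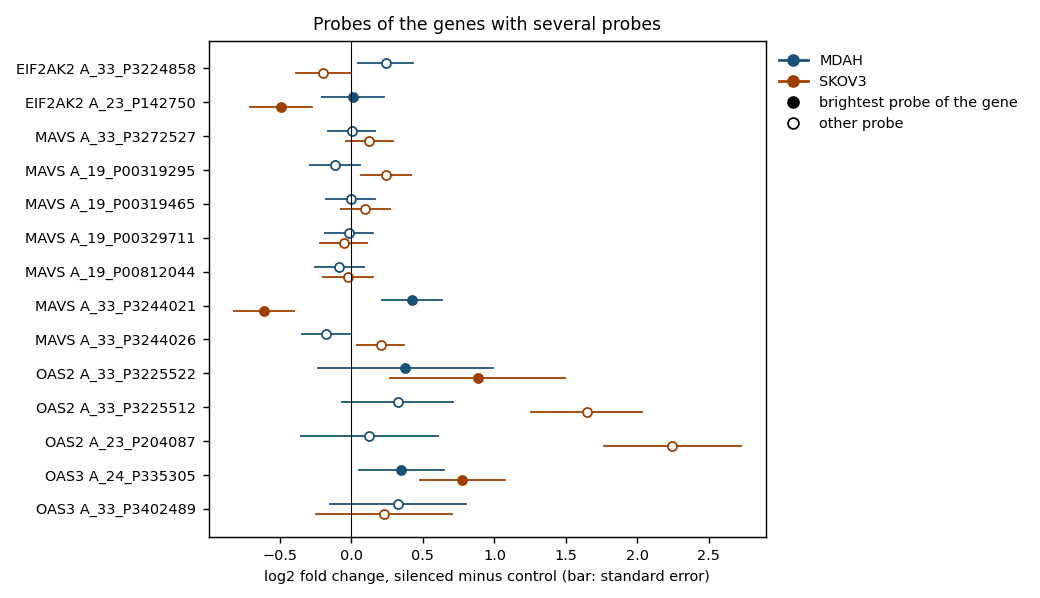
Log2 fold change after SFPQ silencing with its standard error (x axis) for each probe of EIF2AK2, MAVS, OAS2 and OAS3 in MDAH (blue) and SKOV3 (orange), with the brightest probe of a gene filled. The filled MAVS probe lies at 0.42 and -0.61 while the other 6 lie within -0.18 to 0.24, and 2 dimmer OAS2 probes lie at 1.65 and 2.24 in SKOV3.

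Over probes, 19 of 19 entered the test, 0 passed in MDAH and in SKOV3, where 2.69% and 1.3% of all probes did, and 1 passed in the average, that of IFIH1 (adjusted p = 0.0264), where 6.46% did. The DHX58 probe was just outside at an adjusted p of 0.0504. Between the unsilenced lines 11 of 19 probes passed, beside 51.8% of all probes.

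The rest of the pathway was read from lists of genes by role, described by their counts beside all genes. Among 11 other sensors tested, 1 was called higher in SKOV3, beside 0.424% of all genes, and 2 in the average, beside 2.02%. DDX60, an interferon-induced helicase, rose in SKOV3 (1.31 ± 0.19, adjusted p = 0.044) and in the average (0.94 ± 0.14, adjusted p = 0.0201). OASL, a member of the OAS family without its enzyme activity, rose in the average (2.15 ± 0.40, adjusted p = 0.0353), from -0.32 and 0.99 in MDAH controls to 1.93 and 1.92, and from -4.50 and -3.01 in SKOV3 controls to -0.90 and -1.21. The list's median was 0.54 in MDAH and 0.09 in SKOV3. RIGI, the sensor of short duplexes with phosphorylated ends, had an average change of 0.35 ± 0.16 that did not pass (adjusted p = 0.22). The averages of ZC3HAV1, DHX33 and NLRP1, 0.39, 0.01 and -0.02, did not pass either. NLRP1 lay at 0.61 in MDAH and -0.65 in SKOV3.

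Among 12 genes of duplex binding, editing and processing, 3 were lower in the average, beside 3.64% of all genes, and none higher, beside 2.02%. The count includes ADARB2, whose average rests mostly on values below background. ADARB1, the second active editing enzyme, had a log2 fold change of -2.26 in each line on its NM_001112 probe and fell in the average (-2.26 ± 0.36, adjusted p = 0.0251). That probe read 1.76 and 1.78 in MDAH controls, 0.14 and -1.11 after silencing, 2.95 and 2.77 in SKOV3 controls and 1.25 and -0.06 after silencing. Its other probe, for the non-coding transcript NR_027673, went the other way (2.43 in MDAH, 1.62 in SKOV3, average 2.03, adjusted p = 0.00698 over all probes). It read -4.10 and -3.35 in MDAH controls, -1.61 and -0.97 after silencing, -0.97 and -0.85 in SKOV3 controls and 0.80 and 0.61 after silencing, with no overlap in either line. ADARB2, a relative of it without editing activity, was above background only in the MDAH controls and entered the test through them alone. It was at least 4.21-fold lower in silenced MDAH cells, and no weight is put on its p-values. STAU2, which binds duplexes in transported RNA, was lower in MDAH (-1.06 ± 0.14, adjusted p = 0.0223) and in the average (-0.69 ± 0.10, adjusted p = 0.0195). A further STAU2 probe for the same accession, NM_001164380, was below background in all 4 silenced arrays and above it in all 4 controls. It entered the test through the controls alone. It was at least 11.54-fold lower in MDAH and at least 19.2-fold lower in SKOV3, whereas the NM_014393 probe gave -0.79 and -0.26. DICER1 (0.58) and XPO5 (0.34) had the highest averages among its genes above background throughout, without passing.

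None of 26 genes of the signalling chain passed in MDAH, in SKOV3 or in the average, beside 2.03%, 0.997% and 5.66% of all genes. TICAM1, the adaptor of TLR3, was nearest, at 0.60 ± 0.13 in the average (adjusted p = 0.0505), and both silenced arrays were above both controls in each line. RNF125 had an average of 0.68 and IKBKE and PCBP2 of -0.12 and -0.15. None of 11 genes downstream of the OAS enzymes and PKR passed, beside the same shares of all genes. The stress-response gene PPP1R15A had the highest average among those above background on all arrays, 0.67 ± 0.17 (adjusted p = 0.068), before TRIB3 at 0.60, which lay at -0.20 in MDAH (adjusted p = 0.753) and at 1.41 in SKOV3 (adjusted p = 0.106). ABCE1, a factor of ribosome recycling, and DNAJC3, an inhibitor of PKR, had averages of 0.05 and -0.12.

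Among 15 tested genes of the interferons, their receptors and the signalling below them, 1 was called higher and 1 lower in the average. The shares of all genes were 2.02% and 3.64%. IRF9, the DNA-binding part of the complex that acts on interferon-stimulated genes, rose in the average (0.88 ± 0.13, adjusted p = 0.0217). It stood at 1.24 and 1.36 in MDAH controls, 1.93 and 2.23 after silencing, -0.50 and -0.27 in SKOV3 controls and 0.73 and 0.45 after silencing, apart in both lines. IFNB1, IFNK and IFNL3 were above background on no array. IFNL2, which shares most of its sequence with IFNL3 and may share its signal, rose in MDAH (1.15 ± 0.17, adjusted p = 0.0299) and lay at -0.17 in SKOV3. IFNE, an interferon of the epithelium of the reproductive tract, was lower in SKOV3 (-1.57 ± 0.23, adjusted p = 0.0434) and in the average (-1.0 ± 0.16, adjusted p = 0.025), and was not well above background in silenced MDAH cells. SOCS1 and SOCS3, inhibitors of the pathway, had averages of 0.64 and -0.04.

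Of 22 other interferon-stimulated genes tested, 21 had a positive average, beside 55.1% of all genes, with a median of 0.79 where that of all genes was 0.04. In the average 1 passed, BST2, an antiviral membrane tether (0.78 ± 0.15, adjusted p = 0.0348), where 2.02% of all genes were called higher. MX2 was called in SKOV3, but it was above background only in the silenced SKOV3 arrays and entered the test through them alone. It was at least 2.51-fold higher there than in SKOV3 controls, and no weight is put on its p-value. RSAD2 and IFI44L also entered the test through the silenced SKOV3 group alone. For MX2, RSAD2 and IFI44L the filter itself favoured a positive change in SKOV3, and the count and median of this list include them. Among the genes above background on all arrays, IFI6 had the highest average (1.34 ± 0.81, adjusted p = 0.336) and IFIT3 the next (1.08 ± 0.24, adjusted p = 0.0505). ISG15, the ubiquitin-like modifier, was at 0.78 ± 0.27 (adjusted p = 0.13), and DTX3L and IFIT5 were the lowest of those genes at 0.13 and 0.08. The same list moved between the controls. All 22 genes had a positive mean difference of control 2 minus control 1, beside 57.3% of all genes, with a median of 0.66. Of the 22, 18 were higher in control 2 in both lines, beside 33% of all genes, though none passed. IFI6 was at 2.64 in MDAH control 1 and 4.37 in control 2, and at 0.59 and 3.69 in the SKOV3 controls, above which sh2 (5.60) and not sh3 (3.44) lay.

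**Figure D4:**
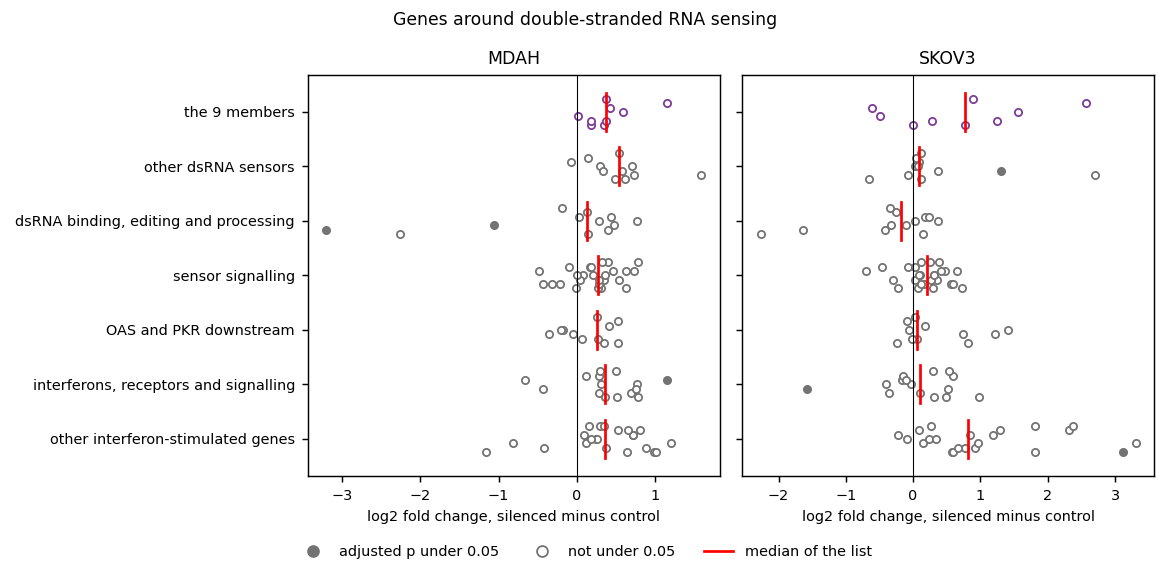
Log2 fold change after SFPQ silencing (x axis) in MDAH and SKOV3 of each tested gene of the 9 and of the 6 lists around double-stranded RNA sensing, with filled points for an adjusted p under 0.05 and a red line at the median. The 9 genes hold no filled point in either line, with medians of 0.37 and 0.77, and the other interferon-stimulated genes lie at 0.36 and 0.81.

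The genes with the most similar pattern over the 8 arrays were sought among 12373 genes well above background on all of them, as a description over arrays that share 2 lines and 4 groups. IFIH1 was nearest to ECH1, PECR and NPDC1 (Pearson's r of 0.996, 0.996 and 0.994), TLR3 to SLCO4A1, TRIM6 and PMM1 (0.997, 0.997 and 0.996) and MAVS to NDUFV2, GIPC1 and TRDMT1 (0.997, 0.996 and 0.995). DHX58 was nearest to AGPAT4-IT1 (0.997), EFEMP2 (0.972) and ENO3 (0.967), and EIF2AK2 to LINC02245 (0.992), UXT (0.973) and TNRC6B (0.969). OAS1 was nearest to IER3, KLF4 and TNFAIP3 (0.967, 0.962 and 0.954), OAS2 to LINC01547, TMOD1 and PLPP1 (0.989, 0.988 and 0.977) and ADAR to SNHG17, HOXA9 and SCGB1A1 (0.957, 0.951 and 0.938). OAS3 was the one whose nearest genes included a listed interferon-stimulated gene, IFI6 (0.938), beside SLC12A4 (0.938) and YIPF3 (0.900).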

How the data were processed

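Labelled RNA of 8 samples was hybridised on the 8 arrays of 1 slide, read in 1 scan. Per the file headers, the authors' Feature Extraction software (11.5.1.1 in the headers, 10.7.3.1 in the submitters' processing notes) subtracted the background, and the deposited intensity of each spot is on a linear scale, not normalized between arrays. A table of log2 values was deposited too, which a recomputation matched to quantile-normalized log2 signals minus each probe's median over the arrays (lowest r over arrays 0.999997). It served as an alternative.

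Control spots and outlier spots (209 to 310 per array) were dropped, log2 values of repeated spots were averaged, and each array's 75th percentile was subtracted. Probes were named by RefSeq accession, 28174 of 29181 matched, and the brightest probe (highest mean) stood for a gene. Genes entered the test if the scanner software flagged the probe as well above background on each array of any 1 group, which left 15550 genes. In R 4.3.3, limma 3.58.1 was fitted over the 4 groups (4 residual and 2.69 prior degrees of freedom), with Benjamini-Hochberg adjustment over all genes tested and a threshold of 0.05. Control 2 minus control 1 and sh3 minus sh2 came from an additive fit of line and sample kind. A probe below background in a whole group has a bound only: the bright group's mean against the lowest signal well above background on the dim group's arrays, or the probe's own where higher. No bound is given where an array of the bright group was below background too. The number of arrays limits the precision.

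The 9 genes and all lists were chosen with earlier results of these data known. All probes of the 9 genes are reported. From each list, the genes called in a line or in the average are named, with the 2 highest and 2 lowest averages among genes above background on all 8 arrays, and RIGI, IFNB1, IRF9 and ISG15 by role. Results of some genes named by this rule are not reported here. The alternatives were quantile normalization, median centring, normexp (offset 50) with quantile normalization on median signals, the deposited values, no filter, a filter on all 8 arrays, the mean of all probes, limma's trend and robust options, each line alone, a replicate block, leaving out each array and, chosen after seeing the data, only control 1 or only control 2 as reference. Array and reference builds differ, so that no probe coordinates are given.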

Additional observations from a re-analysis of the deposited data

How the results depend on the processing

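The counts moved most in the average of both lines and in SKOV3. In the average, 2 of the 9 genes passed; 1 passed under quantile normalization and with the deposited values, 3 under normexp with quantile normalization (OAS1 added), and 0 without a filter on dim probes, with only control 1 and with only control 2 as reference. In SKOV3, 0 passed, but IFIH1 and DHX58, 2 genes, did under normexp, with the filter on all 8 arrays and with limma's trend and robust options. Between the unsilenced lines 5 passed, and 4 to 6 under the alternatives. With the replicate block (control and hairpin numbers shared between the lines) 2 passed in SKOV3, IFIH1 and OAS1, as in the average, where DHX58 was lost (adjusted p = 0.0505). The block is an alternative only, since same-numbered arrays deviated together with r of 0.36 for the hairpins and 0.078 for the controls. Leaving out 1 array gave 0 to 0 genes in MDAH, 0 to 1 in SKOV3, 0 to 2 in the average, 0 to 0 for the difference of effects, the controls and the hairpins, and 5 to 6 between the lines. Over all genes those calls ran from 9 to 1091 in MDAH (316 with all arrays), from 13 to 595 in SKOV3 (155) and from 32 to 1686 in the average (880). Where 1 array was left in a group, it was assumed to vary like the other groups. Signs turned only for estimates that had not passed. EIF2AK2 in MDAH became -0.11 (quantile and deposited values), -0.13 (normexp) and -0.12 (only control 2), and ran from -0.25 to 0.27 on leaving out 1 array. OAS2 in MDAH became -0.21 with only control 1 (-0.21 to 0.96 on leaving out 1 array). ADAR in SKOV3 became -0.031 with median centring and -0.079 with only control 2 (-0.079 to 0.086), its difference between lines -0.089, -0.095 and -0.093 and its unsilenced SKOV3 minus MDAH value -0.17, -0.20 and -0.18 under quantile, normexp and deposited values (-0.038 to 0.13 on leaving out 1 array). The MAVS average became 0.00017 with the mean of its probes and 0.085 with only control 1 (-0.20 to 0.015). The OAS2 difference became 0.91 with only control 2 (-1.34 to 0.33), and the TLR3 difference -0.12 with only control 1 (-0.27 to 0.45). TLR3 in SKOV3 ran from -0.074 to 0.64. The causes were not tested. Median centring moved the median of all genes from 0.10 to 0.21 in MDAH and from 0.05 to 0.21 between the lines. OAS1, OAS2, OASL, ADARB2 and MX2 lay near or below background on 1 or more arrays, where differences are least certain.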
